A study of Mus musculus with 12 samples.

Results

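The genes described here are the Notch receptors Notch1, Notch2, Notch3 and Notch4, the ligands Jag1 and Jag2, and the HES/HEY targets Hes1, Hey1, Hey2 and Heyl. They are 10 of the 19938 genes that had a transcript cluster carrying a single gene symbol on Affymetrix Mouse Gene 1.0 ST arrays, and each was read by 1 such cluster. A transcript cluster is a set of probes that are summarized together into 1 value per array. The 10 genes were selected on the measured level of Hey1, which differed strongly between the mated groups, so the values of Hey1, and every difference between the mated groups within these 10 genes, are given as descriptions with no test.

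The study asked what sperm add to the uterine response to seminal fluid. Endometrial RNA was measured in females 8 h after mating with intact males, in females 8 h after mating with vasectomised males, and in virgin unmated controls. Intact males deliver sperm and seminal plasma, and vasectomised males deliver seminal plasma without sperm. According to the paper, the ejaculate after vasectomy also lacks secretions of the testes, epididymis and vas deferens. Sperm and these secretions therefore cannot be told apart in a comparison of the mated groups. Mated females were CBAF1, the F1 of CBA and C57Bl/6 mice, and their males were BALB/c. Control females were virgin CBAF1. Each group had 4 arrays, every array held RNA of 4 pooled females, and 16 females stood behind each group, so the spread between arrays is a spread between pools. Tissue of controls was collected in the evening of pro-estrus according to the methods, while the labels call the controls estrus females. Hour, cycle stage and mating therefore cannot be told apart in any comparison with controls.

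Notch receptors are membrane proteins that are cleaved after binding a Jagged or Delta-like ligand on a neighbouring cell. The released intracellular domain enters the nucleus, joins the DNA-binding protein RBPJ and a Mastermind coactivator, and switches on genes such as Hes1 and the Hey genes. HES and HEY proteins are basic helix-loop-helix repressors that bind E-box and related sites. In mice the pathway is known for roles in blood vessel patterning and in the decidual response of the uterus.

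All values are log2 expression levels as the authors deposited them, and array medians differed by little (7.255 to 7.315). Each of 35556 transcript clusters was fitted with limma over the 12 arrays. A call required a fold-change of 1.5 or more together with an adjusted p (Benjamini-Hochberg, all clusters) of 0.05 or less. The p-values set each difference between groups against the spread between these pools. Control arrays 1 and 2 stood apart from control arrays 3 and 4 in cell type markers. The mean log2 level of 12 blood endothelium markers was 7.99 and 7.95 on control arrays 1 and 2, and 7.27 and 7.20 on control arrays 3 and 4. For 10 stroma markers the means were 10.48 and 10.43 on arrays 1 and 2, and 9.59 and 9.58 on arrays 3 and 4. The mean of 11 epithelium markers lay between 11.88 and 12.02 on all 12 arrays, against a median of 7.28 over all clusters. In tissue of mixed cells such as this, fewer cells of a type and less RNA per cell cannot be told apart.

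Promoter windows show where the letters bound by the pathway's proteins occur, and 3 of them are printed because they bear on genes described below. Windows ran from 250 bases before to 50 bases from the start site on, were taken from RefSeq (mouse build GRCm38.p6) and were found for 7 of the 10 genes. Hey1, Heyl and Hes1 had no entry, nor had Snai2, which is described below. Both strands were searched for the RBPJ motif CGTGGGAA and its core TGGGAA, which lies within the longer motif. They were also searched for the E-box CACGTG and the related site CACGCG. Of 32851 windows of all genes, 0.734% held CGTGGGAA, 25.6% TGGGAA, 7.15% CACGTG and 9.27% CACGCG. Hey2 held CGTGGGAA at 2 places, first bases at -207 on the other strand, where it reads TTCCCACG, and at -5. No other window of the 7 held the core. The site CACGCG was found once in Notch2, at 2 places in Jag1 and once in Jag2. Of the genes outside these 10 that were called, Dll4 and Bhlhe41 had a window. Dll4 held CACGCG at -195. Bhlhe41 held CACGTG at -153 and CACGCG at -120, where the printed strand reads CGCGTG. A match is a description of the letters and no measurement of binding. The windows below read 5′ to 3′ and capitals mark the motif matches. Hey2 lies at chr10:30842734-30843033 on the minus strand, Dll4 at chr2:119325534-119325833 on the plus strand and Bhlhe41 at chr6:145865371-145865670 on the minus strand.
Hey2: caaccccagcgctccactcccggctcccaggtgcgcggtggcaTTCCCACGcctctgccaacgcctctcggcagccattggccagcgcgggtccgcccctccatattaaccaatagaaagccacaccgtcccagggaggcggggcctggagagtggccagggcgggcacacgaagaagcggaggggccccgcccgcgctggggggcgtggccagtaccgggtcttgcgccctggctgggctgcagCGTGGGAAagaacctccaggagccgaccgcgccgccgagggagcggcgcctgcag
Dll4: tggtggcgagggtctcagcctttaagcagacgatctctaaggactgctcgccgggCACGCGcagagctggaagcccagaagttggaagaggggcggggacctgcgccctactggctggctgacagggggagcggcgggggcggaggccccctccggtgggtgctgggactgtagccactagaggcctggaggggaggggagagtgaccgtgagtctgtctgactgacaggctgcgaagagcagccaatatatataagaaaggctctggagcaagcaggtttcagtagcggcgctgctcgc
Bhlhe41: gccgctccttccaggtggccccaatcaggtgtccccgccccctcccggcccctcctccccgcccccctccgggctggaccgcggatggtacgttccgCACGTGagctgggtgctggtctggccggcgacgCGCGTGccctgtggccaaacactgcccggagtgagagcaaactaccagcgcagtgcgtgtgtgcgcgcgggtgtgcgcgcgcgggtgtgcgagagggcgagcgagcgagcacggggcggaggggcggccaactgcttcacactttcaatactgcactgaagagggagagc

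In the intact-mated group Hey1 was the gene of the 10 with the greatest difference from controls, 4.69-fold higher, and Hes1 was 1.48-fold lower. The receptors and the Jagged ligands differed from controls by at most 1.16-fold in the same group. In the vasectomised-mated group Hey1 averaged 1.55-fold above controls with overlapping arrays, while Hes1 lay at the control level. Of the 10 genes, 1 passed both thresholds in the intact-mated group, where 3.49% of all clusters were called. That was Hey1, and nothing is read from the count, since the intact-mated arrays enter the difference between mated groups for which Hey1 was chosen. In the vasectomised-mated group 0 of the 9 genes besides Hey1 were called in limma or with unmoderated variances, where 1.43% of all clusters were called. Of these 9 genes, 4 had an unadjusted p under 0.05 there (Notch1, Notch4, Jag1 and Jag2), as did 6713 of 35556 clusters. Groups did not overlap for 4 genes between intact-mated and control females (Notch1, Jag1, Hey1 and Hes1), against 14.2% of all clusters. Nothing is read from this count either, since it holds Hey1. Vasectomised-mated and control arrays did not overlap for 3 genes (Notch1, Jag1 and Jag2), against 10.7% of all clusters. The median log2 difference over the 10 genes was 0.08 in the intact-mated group and -0.01 in the vasectomised-mated group, against 0.01 in both comparisons over all clusters.

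**Figure D1:**
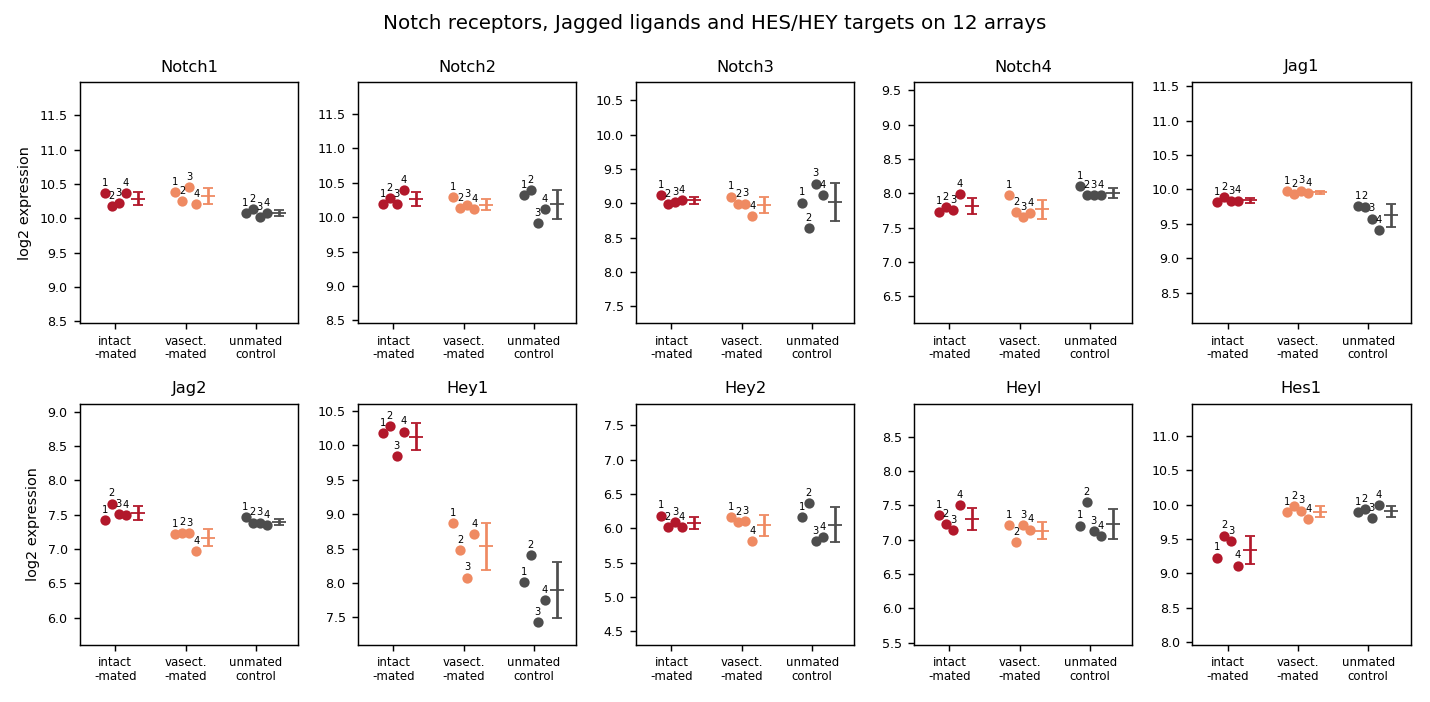
Log2 expression of the 10 genes on each of the 12 arrays. Points are arrays with their replicate numbers, bars are mean ± SD (n = 4), the panels span the same number of log2 units, and Hey1 lies between 9.84 and 10.28 on the intact-mated arrays, above every other array.

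Notch1, a receptor with roles in uterine stromal cells in mice, had log2 levels of 10.37, 10.18, 10.23 and 10.36 on the intact-mated arrays. The levels were 10.38, 10.25, 10.46 and 10.20 on the vasectomised-mated arrays, against 10.08, 10.13, 10.02 and 10.08 on the control arrays. Both mated groups lay above every control array, by a small margin. The log2 difference from controls was 0.21 in the intact-mated group (SE 0.07, limma adjusted p = 0.0941) and 0.25 in the vasectomised-mated group (SE 0.07, limma adjusted p = 0.0840), and Notch1 did not pass the test in either comparison.

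Notch4, a receptor found mainly in endothelial cells, had 7.73, 7.81, 7.76 and 7.99 on the intact-mated arrays. It had 7.98, 7.73, 7.66 and 7.71 on the vasectomised-mated arrays, against 8.11, 7.97, 7.97 and 7.98 on the control arrays. A single array of each mated group reached the control values and the other 3 of each lay below them. The log2 differences of -0.19 in the intact-mated group (SE 0.08, limma adjusted p = 0.196) and -0.24 in the vasectomised-mated group (SE 0.08, limma adjusted p = 0.138) did not pass the test.

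Notch2 and Notch3 had overlapping arrays in all 3 groups. Notch2 is widely expressed, and Notch3 is best known from vascular smooth muscle. Notch2 averaged 10.27 ± 0.10 in intact-mated, 10.18 ± 0.08 in vasectomised-mated and 10.19 ± 0.21 in control females (SD, n = 4 each). Notch3 averaged 9.04 ± 0.05 in intact-mated, 8.97 ± 0.12 in vasectomised-mated and 9.02 ± 0.28 in control females (SD, n = 4 each). Controls had the widest spread for both receptors. The 95% interval of the log2 difference between intact-mated and control females ran from -0.14 to 0.29 for Notch2 (limma adjusted p = 0.721) and from -0.22 to 0.28 for Notch3 (limma adjusted p = 0.925). The direction of both turned with the control arrays used, since the same difference was -0.09 for Notch2 without control arrays 3 and 4 and -0.16 for Notch3 without control arrays 1 and 2. In the vasectomised-mated group the log2 differences from controls were -0.01 for Notch2 (limma adjusted p = 0.984) and -0.04 for Notch3 (limma adjusted p = 0.890).

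Jag1, the Jagged ligand whose loss in mice disturbs vessel growth, had 9.81, 9.89, 9.83 and 9.84 on the intact-mated arrays. It had 9.98, 9.93, 9.98 and 9.95 on the vasectomised-mated arrays, against 9.76, 9.75, 9.58 and 9.41 on the control arrays. The 3 groups did not overlap, with vasectomised-mated arrays highest and control arrays lowest. The log2 difference from controls was 0.22 in the intact-mated group (SE 0.08, limma adjusted p = 0.0942). In the vasectomised-mated group it was 0.34 (SE 0.08, limma adjusted p = 0.0284), which passed the adjusted p, as 4.07% of all clusters did, but was 1.26-fold and under the fold threshold. Without control arrays 3 and 4 the log2 differences were 0.09 and 0.21.

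Jag2, the other Jagged ligand, had 7.42, 7.66, 7.51 and 7.49 on the intact-mated arrays. It had 7.21, 7.24, 7.24 and 6.98 on the vasectomised-mated arrays, against 7.46, 7.38, 7.39 and 7.35 on the control arrays. Intact-mated and control arrays overlapped, and every vasectomised-mated array lay below both. The log2 difference from controls was 0.13 in the intact-mated group (SE 0.08, limma adjusted p = 0.371) and -0.23 in the vasectomised-mated group (SE 0.08, limma adjusted p = 0.122), so Jag2 did not pass the test in either.

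Hey1, a repressor that Notch switches on in vessels and other tissues, had log2 levels of 10.18, 10.28, 9.84 and 10.20 on the intact-mated arrays. It had 8.87, 8.47, 8.08 and 8.71 on the vasectomised-mated arrays, against 8.01, 8.40, 7.42 and 7.75 on the control arrays. Every intact-mated array lay above every other array, and the vasectomised-mated and control arrays overlapped. The log2 difference from controls was 2.23 in the intact-mated group (SE 0.21) and 0.64 in the vasectomised-mated group (SE 0.21), and both comparisons share the control arrays. Intact-mated and vasectomised-mated females differed by 1.59 (SE 0.21, 3.02-fold), the difference for which the gene was chosen. The control arrays differed among themselves by close to 1 log2 unit. Without control arrays 1 and 2 the differences from controls were 2.54 in the intact-mated group and 0.95 in the vasectomised-mated group, and without control arrays 3 and 4 they were 1.92 and 0.32.

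The related repressors Hey2, known from arteries and the heart, and Heyl, known from vascular smooth muscle, did not show the pattern of Hey1. Hey2 had 6.19, 6.02, 6.09 and 6.01 on the intact-mated arrays. It had 6.16, 6.09, 6.10 and 5.82 on the vasectomised-mated arrays, against 6.17, 6.36, 5.82 and 5.87 on the control arrays. Heyl averaged 7.30 ± 0.16 in intact-mated, 7.13 ± 0.12 in vasectomised-mated and 7.23 ± 0.22 in control females (SD, n = 4 each). The arrays of the 3 groups overlapped for both genes. The log2 difference between intact-mated and control females was 0.02 for Hey2 (95% interval -0.24 to 0.28, limma adjusted p = 0.938) and 0.07 for Heyl (95% interval -0.17 to 0.32, limma adjusted p = 0.777). Both genes lay among the dim clusters, with a mean below the median of all clusters. Without control arrays 3 and 4 the differences were -0.19 for Hey2 and -0.07 for Heyl.

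Hes1, the HES repressor read most widely as a Notch target, had 9.23, 9.55, 9.47 and 9.11 on the intact-mated arrays. It had 9.89, 9.98, 9.92 and 9.79 on the vasectomised-mated arrays, against 9.89, 9.94, 9.81 and 9.99 on the control arrays. All 4 intact-mated arrays lay below all 8 others, and the vasectomised-mated and control arrays covered nearly the same range. The log2 difference between intact-mated and control females was -0.57 (SE 0.09, 95% interval -0.77 to -0.36, limma adjusted p = 0.00209), which passed the adjusted p, as 10.1% of all clusters did. Its size of 1.48-fold was just short of the fold threshold. It was -0.01 in the vasectomised-mated group (SE 0.09, 95% interval -0.21 to 0.19, limma adjusted p = 0.970). Hes1 would be called without control array 3 (-0.60), without intact-mated array 2 (-0.64) or without intact-mated array 3 (-0.61).

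**Figure D2:**
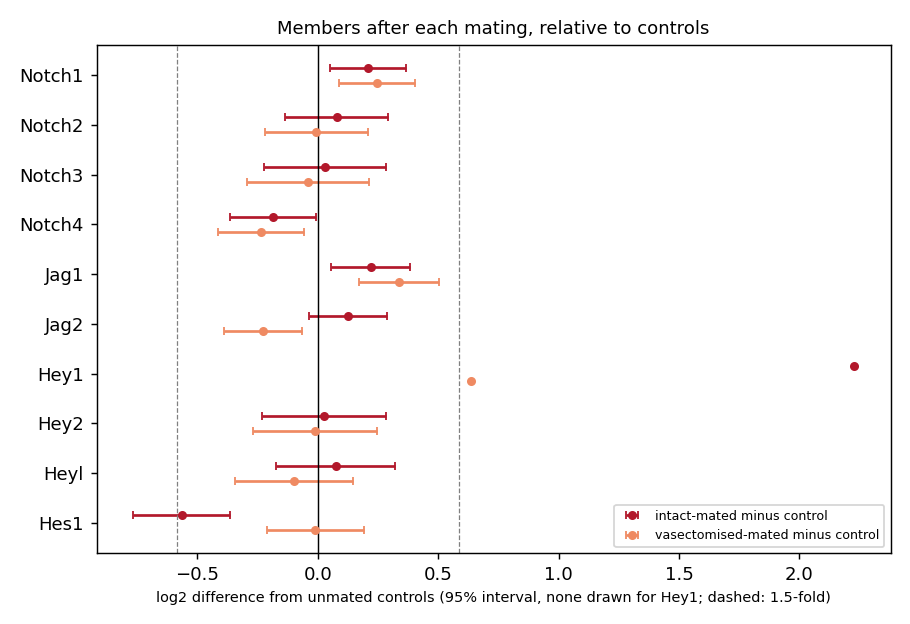
Log2 difference from unmated controls (horizontal axis) of each of the 10 genes in the intact-mated and vasectomised-mated groups. Bars are 95% intervals from limma, not drawn for Hey1, dashed lines mark a fold-change of 1.5, and in the intact-mated group Hey1 lies at 2.23 and Hes1 at -0.57.

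Between the mated groups the 10 genes are described only. Hey1 was the 1 gene of 10 past both thresholds, where 0.796% of all clusters were called and 2.34% passed the adjusted p alone, and nothing is read from that count since Hey1 chose the comparison. Intact-mated and vasectomised-mated arrays did not overlap for Jag1, Jag2, Hey1 and Hes1, where 14% of all clusters did not overlap. The log2 difference was -0.56 for Hes1 (SE 0.09), -0.12 for Jag1 (SE 0.08) and 0.35 for Jag2 (SE 0.08, 1.28-fold). Hey1 and Jag2 were thus higher, and Hes1 and Jag1 lower, in intact-mated females. For the receptors the differences ran from -0.04 for Notch1 to 0.08 for Notch2.

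The rest of the pathway was read from 77 genes listed by role, of which 72 were measured. In the intact-mated group 3 were lower than in controls and 0 higher (limma, 18 with an unadjusted p under 0.05), where 1.55% of all clusters were called lower and 1.95% higher. In the vasectomised-mated group 1 was lower and 0 higher (12 with an unadjusted p under 0.05), where 0.439% of all clusters were called lower and 0.987% higher. Between intact-mated and vasectomised-mated females 1 was lower and 0 higher (14 with an unadjusted p under 0.05), where 0.402% of all clusters were called lower and 0.394% higher. Over all clusters an unadjusted p under 0.05 was reached by 8181, 6713 and 6126 of 35556 in these comparisons, in the same order. Unmoderated variances gave the same counts of called pathway genes, 3, 1 and 1. The median log2 differences of the 72 genes were -0.04, -0.04 and -0.00, against 0.01, 0.01 and -0.00 over all clusters. The genes called were the ligand gene Dll4, the repressor gene Bhlhe41 and the repressor gene Snai2.

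Dll4, a Delta-like ligand made by endothelial cells of arteries and sprouting vessels, had 8.50, 8.35, 8.46 and 8.56 on the intact-mated arrays. It had 9.46, 9.05, 9.06 and 9.29 on the vasectomised-mated arrays, against 9.16, 9.27, 9.73 and 9.39 on the control arrays. All intact-mated arrays lay below all others, while vasectomised-mated and control arrays overlapped. Dll4 was 1.89-fold lower in intact-mated females than in controls (log2 difference -0.92, SE 0.12, limma adjusted p = 0.000488). It was 1.68-fold lower in intact-mated than in vasectomised-mated females (log2 difference -0.75, SE 0.12, limma adjusted p = 0.0124). In the vasectomised-mated group the log2 difference from controls was -0.17 (SE 0.12, 95% interval -0.44 to 0.10, limma adjusted p = 0.505). The related ligand genes Dll1, Dll3, Dlk1 and Dlk2 were not called in any of the 3 comparisons, and Dll1 had a log2 difference of -0.11 in each mated group from controls.

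Bhlhe41, a repressor of the HES-related bHLH-Orange family that takes part in the circadian clock, had 5.89, 6.30, 6.18 and 6.21 on the intact-mated arrays. It had 6.89, 6.25, 6.78 and 6.53 on the vasectomised-mated arrays, against 7.84, 7.37, 7.52 and 7.47 on the control arrays. Both mated groups lay below every control array and overlapped each other. It fell 2.65-fold in the intact-mated group (log2 difference -1.41, SE 0.14, limma adjusted p = 6.96e-05) and 1.91-fold in the vasectomised-mated group (log2 difference -0.94, SE 0.14, limma adjusted p = 0.00402). The log2 difference between intact-mated and vasectomised-mated females was -0.47 (limma adjusted p = 0.115). Controls and mated females were collected at different hours, and hour and mating cannot be told apart here. The paralogue Bhlhe40 had log2 differences from controls of 0.06 in the intact-mated group and 0.08 in the vasectomised-mated group.

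Snai2, a repressor of epithelial genes and a reported Notch target in endothelium, had 6.56, 6.68, 6.60 and 6.90 on the intact-mated arrays. It had 7.57, 6.75, 7.09 and 6.87 on the vasectomised-mated arrays, against 7.93, 7.79, 7.38 and 7.59 on the control arrays. Intact-mated arrays lay below every control array, and vasectomised-mated arrays overlapped both groups. Snai2 was 1.98-fold lower in intact-mated females than in controls (log2 difference -0.99, SE 0.17, limma adjusted p = 0.00258). The log2 difference of -0.60 in the vasectomised-mated group missed the adjusted p (limma adjusted p = 0.0702). It would be called without control array 3 (-0.70) or without vasectomised-mated array 1 (-0.77). Between intact-mated and vasectomised-mated females it was -0.38 (limma adjusted p = 0.262).

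**Figure D3:**
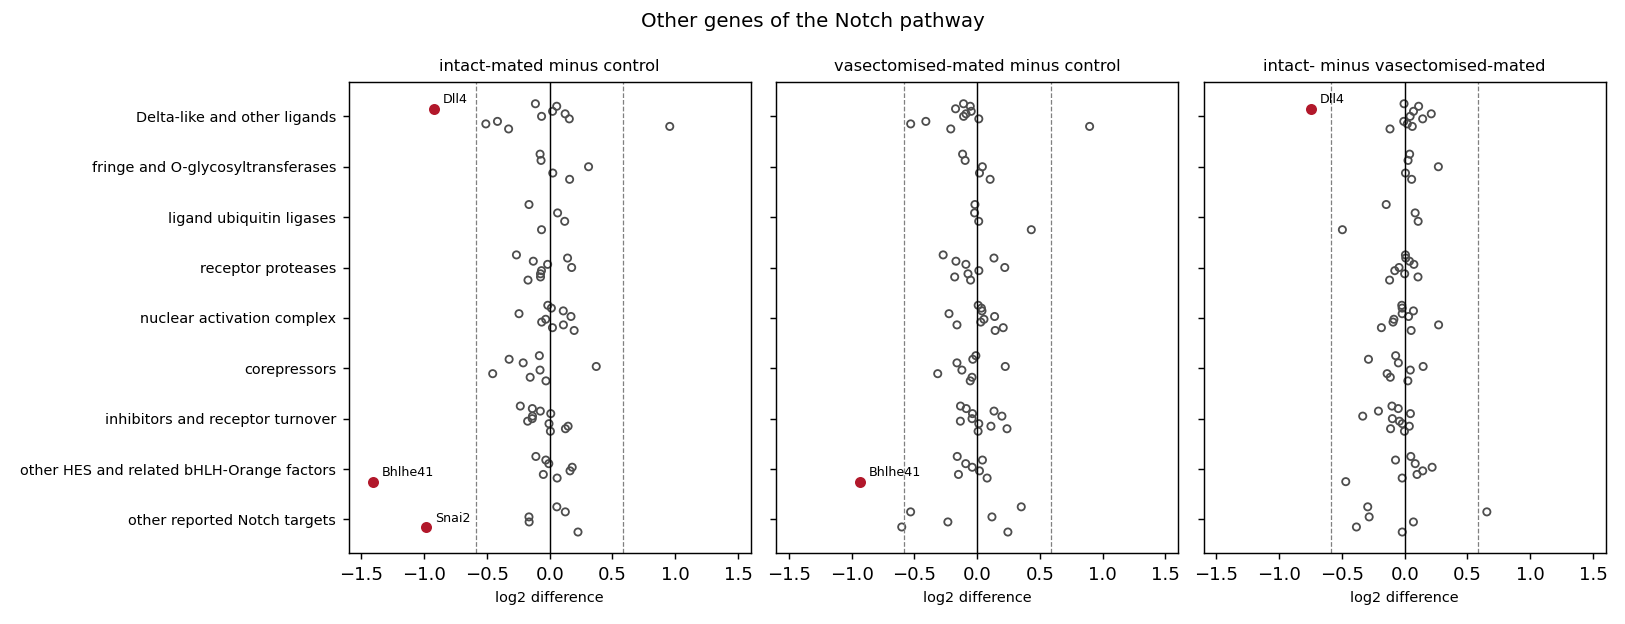
Log2 differences (horizontal axis) of 72 other Notch pathway genes by role, in the 3 comparisons. Filled points passed both thresholds, dashed lines mark a fold-change of 1.5, and the filled points lie at -0.92 for Dll4, -1.41 for Bhlhe41 and -0.99 for Snai2 in the intact-mated group.

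Some genes passed the adjusted p without reaching the fold threshold. Tle3, a Groucho corepressor that HES proteins recruit, averaged 10.42 ± 0.07 in intact-mated, 10.56 ± 0.06 in vasectomised-mated and 10.87 ± 0.12 in control females (SD, n = 4 each). Every array of both mated groups lay below every control array. Its log2 difference from controls was -0.45 in the intact-mated group (SE 0.07, limma adjusted p = 0.00150) and -0.31 in the vasectomised-mated group (SE 0.07, limma adjusted p = 0.0295). Numb, which inhibits Notch receptors, had a log2 difference of -0.23 in the intact-mated group (SE 0.06, limma adjusted p = 0.0313).

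Neurl1b, a ubiquitin ligase that promotes endocytosis of Notch ligands, is named here after its values were seen. It was read from 1 of its 2 clusters, that with the higher mean. It had 8.58, 8.37, 8.59 and 8.26 on the intact-mated arrays and 8.71, 8.92, 9.01 and 9.13 on the vasectomised-mated arrays, against 8.33, 8.69, 8.46 and 8.58 on the control arrays. Vasectomised-mated arrays lay above all others and intact-mated arrays overlapped controls. The log2 difference between intact-mated and vasectomised-mated females was -0.50 (SE 0.11, limma adjusted p = 0.0390), and that between vasectomised-mated and control females was 0.43 (SE 0.11, limma adjusted p = 0.0503).

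The 47 genes of the fringe, ligase, protease, nuclear complex, corepressor and inhibitor lists held 0 calls in any comparison in limma or with unmoderated variances. An unadjusted p under 0.05 was reached by 9 of them between intact-mated and control females, and by 8181 of 35556 clusters. Between vasectomised-mated and control females 8 reached it, as did 6713 clusters, and between the mated groups 7, as did 6126 clusters. The core factor Rbpj averaged 9.60 ± 0.02 in intact-mated, 9.62 ± 0.10 in vasectomised-mated and 9.61 ± 0.17 in control females (SD, n = 4 each), with a 95% interval of the log2 difference between intact-mated and control females from -0.20 to 0.17. Its cofactors had log2 differences in the intact-mated group of -0.24 for the coactivator Maml2 (limma adjusted p = 0.240) and 0.19 for Snw1 (limma adjusted p = 0.0546). Among receptor proteases, Furin, which cuts the receptor during its transport, had -0.26 (limma adjusted p = 0.0828) and the gamma-secretase subunit Ncstn 0.17 (limma adjusted p = 0.173). Rfng, a fringe glycosyltransferase that modifies Notch receptors, had 0.31 (limma adjusted p = 0.0703), and Poglut1, which adds glucose to them, had 0.16 (limma adjusted p = 0.343). These 6 differences pointed both ways and were at most 1.24-fold.

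Other genes with the greatest differences of their roles did not pass either. Ccn3, a matrix protein that binds Notch receptors, had a log2 difference from controls of 0.96 in the intact-mated group (SE 0.34, limma adjusted p = 0.101) and 0.90 in the vasectomised-mated group (SE 0.34, limma adjusted p = 0.173), with wide spread in every group. Without control array 1 it would be called in the intact-mated group (1.25). The corepressor Tle1 had 0.37 in the intact-mated group (limma adjusted p = 0.274), and without control arrays 1 and 2 it would be called (0.70). The ligand ubiquitin ligases Mib1 and Neurl1a had -0.16 and 0.12, and Dtx2, a Deltex regulator of Notch receptors, had -0.18. Hes6, which antagonises Hes1, had 0.18 (limma adjusted p = 0.211), and Sox9, a reported Notch target of gland epithelium, had 0.23 (limma adjusted p = 0.115). Nrarp, a feedback inhibitor induced by Notch in mice and other vertebrates, had 0.01 in both mated groups against controls.

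Cell type markers were read beside these genes. Of 12 blood endothelium markers 0 were called in any comparison in limma. An unadjusted p under 0.05 was reached by 1, 1 and 0 of them, and by 8181, 6713 and 6126 of 35556 clusters. All 12 had a negative log2 difference between intact-mated and control females (median -0.24), the direction of Dll4. Between intact-mated and vasectomised-mated females 11 of the 12 did (median -0.14), and between vasectomised-mated and control females 10 did (median -0.09). Over all clusters the medians were -0.00 between the mated groups and 0.01 in both comparisons with controls. Their mean log2 level lay between 7.10 and 7.60 on the intact-mated arrays and between 7.31 and 7.89 on the vasectomised-mated arrays, against 7.20 to 7.99 on the control arrays. These ranges overlapped, and the part of endothelium in the difference of Dll4 was not tested. The endothelial genes Emcn and Erg had log2 differences between intact-mated and control females of -0.64 (limma adjusted p = 0.419) and -0.46 (limma adjusted p = 0.0640). Without control arrays 1 and 2, which were high in these markers, the log2 difference of Dll4 between intact-mated and control females was -1.09, and without control arrays 3 and 4 it was -0.75.

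All 10 stroma markers had a negative log2 difference between intact-mated and control females (median -0.60), the direction of Snai2. An unadjusted p under 0.05 was reached by 7 of them there, and by 8181 of 35556 clusters. All 10 differences were also negative between vasectomised-mated and control females (median -0.34), and 9 were between intact-mated and vasectomised-mated females (median -0.29). Of the 10, 2 were called lower in the intact-mated group, where 1.55% of all clusters were. They were the small proteoglycan gene Lum (log2 difference -0.97, limma adjusted p = 0.00886) and the collagen gene Col1a1 (log2 difference -0.75, limma adjusted p = 0.0434). The mean of the list lay between 8.99 and 9.76 on the intact-mated arrays and between 9.41 and 10.06 on the vasectomised-mated arrays, against 9.58 to 10.48 on the control arrays. Snai2 and this list were both lowest on intact-mated array 1 and highest on control array 1, and the part of stroma in the difference of Snai2 was not tested. Without control arrays 1 and 2 the log2 difference of Snai2 between intact-mated and control females was -0.80.

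Of 12 neutrophil markers 3 were called higher in intact-mated females than in controls, where 1.95% of all clusters were. The same 3 were called higher than in vasectomised-mated females, where 0.394% of all clusters were. They were the calgranulin gene S100a9, the chemokine receptor gene Cxcr2 and the growth factor receptor gene Csf3r. The log2 differences between intact-mated and control females were 1.43 for S100a9 (limma adjusted p = 0.00166), 2.25 for Cxcr2 (limma adjusted p = 0.000162) and 1.14 for Csf3r (limma adjusted p = 0.00460). The mean of the list lay between 7.05 and 7.35 on the intact-mated arrays and between 6.75 and 6.92 on the vasectomised-mated arrays, against 6.64 to 6.77 on the control arrays. Log2 differences were positive for 11 of the 12 markers between intact-mated and control females (median 0.28) and for 8 of 12 between intact-mated and vasectomised-mated females (median 0.08). Ly6g, which encodes a neutrophil surface antigen, had a log2 difference of -0.44 between intact-mated and control females (limma adjusted p = 0.330) and of -0.27 between the mated groups (limma adjusted p = 0.633). Its control arrays ran from 9.32 to 10.67. The mean of the list was thus higher in intact-mated females than in both other groups, as was Hey1, while its members were mixed in direction between the mated groups, and their part in the level of Hey1 was not tested. Of 11 epithelium markers 0 were called in any comparison in limma. An unadjusted p under 0.05 was reached by 4, 3 and 4 of them, and by 8181, 6713 and 6126 of 35556 clusters. The tight junction gene Cldn7 (0.55, limma adjusted p = 0.000525) and the keratin gene Krt7 (-0.35, limma adjusted p = 0.0276) had the greatest log2 differences between intact-mated and control females. The smooth muscle and mural list (Rgs5 -0.43 and Myh11 0.29) and the macrophage list (C1qb -0.50 and Cd68 0.45) also held 0 calls. So did the lymphatic endothelium list (Flt4 -0.24 and Pdpn 0.23), of which 4 of 5 genes were measured. In that order the lists had 0, 1 and 2 genes of unadjusted p under 0.05 between intact-mated and control females. The lymphatic gene left out was Ccl21a, which had no cluster of a single symbol, so the absence of calls does not cover it. The paper reports Ccl21a as lower after mating with intact males, by array and by qPCR.

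**Figure D4:**
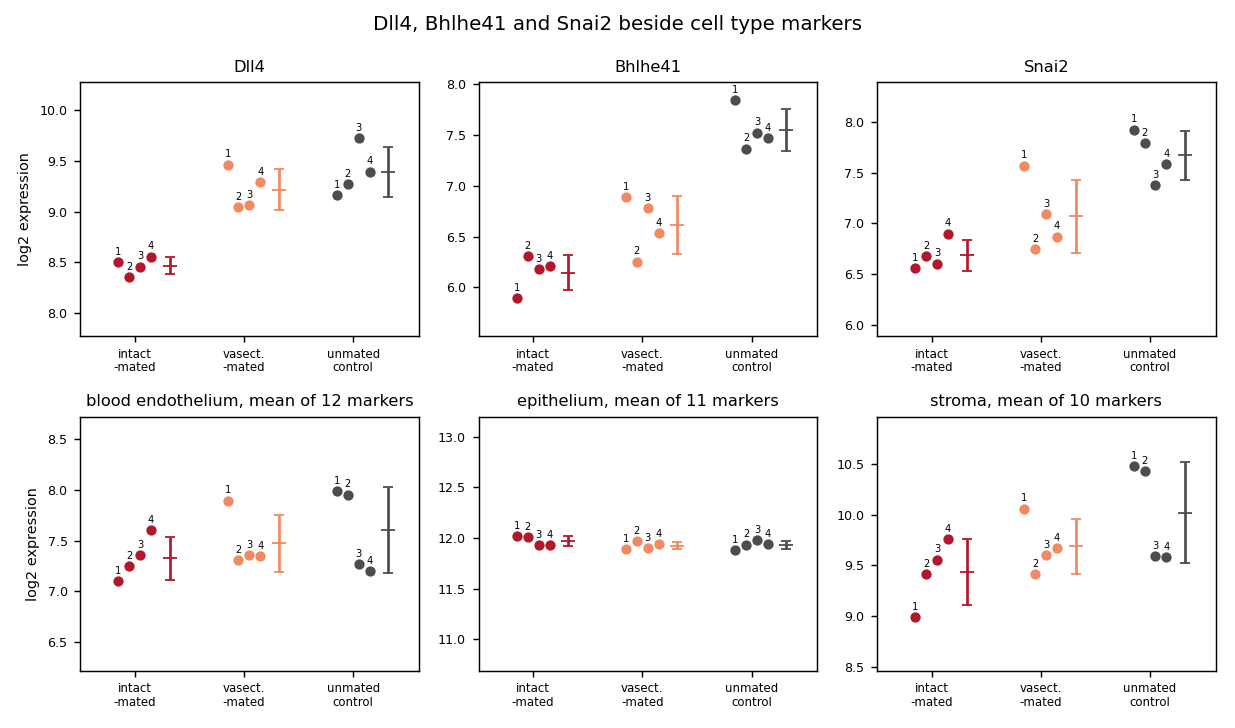
Log2 expression of Dll4, Bhlhe41 and Snai2 and the mean log2 level of blood endothelium, epithelium and stroma markers on each array. Points are arrays with their replicate numbers, bars are mean ± SD (n = 4), and the Dll4 values of intact-mated females (8.35 to 8.56) lie below all others and their endothelium means lie between 7.10 and 7.60.

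The genes whose profile over the 12 arrays was closest to that of Hey1 were sought among 19937 genes, by the root mean square difference of log2 levels after each gene was centred on its own mean. They were Il1b (0.351), which encodes interleukin-1 beta, Nox1 (0.355), which encodes an oxidase that makes superoxide, its organiser gene Noxo1 (0.364), the interleukin-22 receptor gene Il22ra1 (0.379) and Gm9573 (0.385). None of them belongs to the pathway lists. Noxo1 averaged 10.50 ± 0.16 in intact-mated, 9.56 ± 0.17 in vasectomised-mated and 8.49 ± 0.35 in control females (SD, n = 4 each). Il1b averaged 8.49 ± 0.64 in intact-mated, 6.85 ± 0.43 in vasectomised-mated and 6.30 ± 0.08 in control females (SD, n = 4 each). These genes were picked for likeness, so their differences carry no test.

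**Figure D5:**
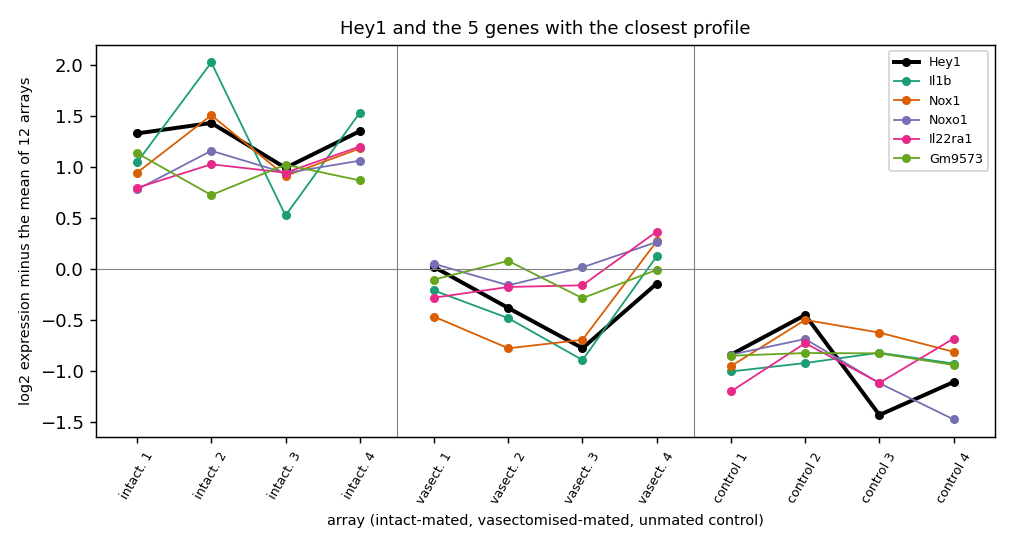
Log2 expression minus the mean of the 12 arrays (vertical axis) for Hey1 and the 5 genes with the closest profile, array by array. Lines join arrays of the same group for legibility only, and root mean square differences from Hey1 run from 0.351 for Il1b to 0.385 for Gm9573.

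For Hes1 the closest profiles were those of Slc25a30 (0.136), a mitochondrial carrier gene, Gjb2 (0.140), which encodes the gap junction protein connexin 26, Nckap5 (0.142), Lrrcc1 (0.145) and Scp2 (0.145), a lipid transfer protein gene. Gjb2 averaged 11.42 ± 0.05 in intact-mated, 11.93 ± 0.13 in vasectomised-mated and 11.86 ± 0.06 in control females (SD, n = 4 each). All 5 had a lower mean in intact-mated females than in both other groups, as Hes1 had. They were picked for that likeness, so their differences carry no test. Their mean log2 differences between intact-mated and control females ran from -0.45 for Lrrcc1 to -0.32 for Scp2.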

How the data were processed

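Endometrial RNA (300 ng per array) of 12 pools was labelled and hybridised to Affymetrix Mouse Gene 1.0 ST arrays. The authors deposited log2 values made in Partek Genomics Suite, where the background was corrected by RMA, probe GC content was adjusted for and probes were summarized by their mean. The version of that software is not given in the sources used here. Mean summarization keeps the deposited log2 level of a gene open to a stray probe. Groups were taken from the sample labels, and the per-array columns not used numbered 0. Clusters were matched to genes through the platform annotation: 21789 carried 1 symbol, 1621 several and 12146 none. A gene with several clusters of a single symbol, such as Neurl1b, Rbpj or Maml2, was read by the cluster with the highest mean. Notch4 also appears in clusters that carry several symbols, which were not used.

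A linear model with 3 group means was fitted to every cluster on the 12 arrays (limma 3.58.1, R 4.3.3). Variances were moderated without a trend, on 9 residual and 3.258 prior degrees of freedom. The code was tested on simulated data. The members, gene lists and thresholds were chosen with earlier results of these data known. Genes named were the 10 members, every called gene of the pathway lists, the 2 of each role list and marker list with the greatest difference between intact-mated and control females, and the 5 closest profiles. Genes named beyond that rule (Neurl1b, Rbpj, Nrarp, Dll1, Bhlhe40, Csf3r, Ly6g, Dll3, Dlk1, Dlk2, Dtx4, Myc, Mfap2, Mfap5 and Snai1) were picked after their values were seen. Alternatives covered normalization, variance moderation, array weights, a replicate block, fitting 2 groups, dim clusters, 1 cluster per gene, fold thresholds and left-out arrays.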

Additional observations from a re-analysis of the deposited data

Results flagged for a closer look

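Among 84 groups of 4 arrays examined for 28 genes, 4 had an array far from the others of its group, where chance gives about 1 in 20. Notch4 stood at 8.11 on control array 1, against 7.97 to 7.98 on the other control arrays. Jag2 stood at 6.98 on vasectomised-mated array 4, against 7.21 to 7.24 on the others. Rfng stood at 8.73 on control array 4, against 8.48 to 8.49 on the others, and Tle3 at 10.31 on intact-mated array 3, against 10.45 to 10.46 on the others.

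The response to mating differed between the mated groups for Dll4 and Neurl1b, by the adjusted p of the difference itself in limma. They were 2 of the 72 pathway genes, where 2.34% of all clusters passed that adjusted p, so nothing about the pathway is read from the count. Dll4 was lower in intact-mated than in vasectomised-mated females by a log2 difference of -0.75 (limma adjusted p = 0.0124), and all 4 intact-mated arrays lay below all 4 vasectomised-mated arrays. Neurl1b had a log2 difference of -0.50 (limma adjusted p = 0.0390) with no overlap, under the fold threshold.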

How the results depend on the processing

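No called value changed sign under the 25 alternatives. Nothing is read from the thresholds Hey1 passed, since its levels in both mated groups chose the genes. Counts of members between the mated groups are descriptions with no test. Hes1 kept its direction between intact-mated and control females (-0.64 to -0.49, limma adjusted p 0.000832 to 0.016). With no fold threshold the calls between intact-mated and control females numbered 3594 over all clusters, 2 members (Hey1, Hes1) and 5 pathway genes. Between vasectomised-mated and control females they numbered 1447, 1 (Jag1) and 2, and between the mated groups 832, 3 and 2. At a fold-change of at least 2 all clusters gave 432, 108 and 63 calls, and pathway genes 1, 0 and 0. Without variance moderation 336 clusters were called between vasectomised-mated and control females and 135 between the mated groups, where array weights gave 468. Removing dim clusters dropped Hey2, Heyl, Bhlhe41 and Snai2 and left 1 and 0 pathway calls in the comparisons with controls, and 1 cluster per gene gave 2 between vasectomised-mated and control females, adding Snai2. Without control arrays 1 and 2 the comparison of vasectomised-mated with control females gave 984 clusters and 3 pathway genes (Bhlhe41, Dtx4, Myc). Without control arrays 3 and 4 it gave 3 pathway genes (Bhlhe41, Mfap2, Snai1), and intact-mated against control females gave 5 (Dll4, Bhlhe41, Snai2, Mfap2, Mfap5). The causes were not tested. Leaving out each array in turn, intact-mated against control females gave 1043 to 1306 clusters, 1 to 2 members and 3 to 4 pathway genes. Vasectomised-mated against control females gave 382 to 708 clusters and 1 to 2 pathway genes. Without control array 2 the log2 difference of Hey1 there was 0.80, given with no test. The mated groups gave 131 to 420 clusters, 1 to 2 members and 1 to 1 pathway genes, the member counts again as a description. Hes1 was the member added without intact-mated array 2 or 3 or vasectomised-mated array 4. The low counts came without intact-mated arrays 4 (131) and 2 (142) and vasectomised-mated arrays 3 (160) and 4 (184).

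Replicate numbers did not pair the arrays: same-numbered deviations correlated from -0.255 to 0.205 over 12 pairs, and 3 arrays matched their own number best. Under a replicate block the log2 difference of Hey1 between vasectomised-mated and control females was 0.64, given as a description with no test. The block changed no call of the other members or of the pathway genes. It moved the all-cluster counts to 1225, 432 and 198. Each member had 1 cluster of a single symbol, so no other such cluster could be tried. The 4 arrays per group limit the precision, and dim genes such as Hey2 lie near the lower end of the signal.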
